A study of Mus musculus with 17 samples.

Results

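Keratin genes were followed across CUT&RUN peak lists of mouse urothelium, with the keratins of the bladder lining set against those of hair and skin. The members were the protein-coding genes of the RefSeq annotation of GRCm38.p6 (mm10) whose symbol is Krt followed by a number and at most 1 letter. There were 53 of them among 21887 protein-coding genes. Of these, 9 were taken as urothelial keratins (Krt5, Krt7, Krt8, Krt13, Krt14, Krt15, Krt18, Krt19 and Krt20) and 44 were the rest. By textbook class the rest held 15 hair shaft keratins (9 of type I and 6 of type II), 7 keratins of the inner root sheath, 17 of epidermis and other stratified epithelia, and 5 in no such class. The comparison is therefore with keratins outside the urothelial list, of which hair shaft keratins are a minority, and hair shaft keratins are given on their own where their values matter.

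CUT&RUN cuts chromatin where an antibody binds, and sequences the released fragments. The antibodies were against STAG2, a subunit of the cohesin ring, LIN54, the DNA-binding subunit of the DREAM repressor complex, and p130, its pocket protein. The cells were peeled urothelium of Stag2-WT and Stag2-KO mice, all sampled 1 week after TMX, at about 500000 cells per condition. The labels give TMX for both genotypes. The allele, the Cre driver and the age of the animals are not given in the sources used here. Peak lists were used for 2 STAG2-WT, 2 STAG2-KO, 3 LIN54-WT, 2 LIN54-KO, 3 p130-WT and 3 p130-KO libraries, which the labels call biological replicates. In these names the antibody comes first and the Stag2 genotype of the mouse second, so that a STAG2-KO library is a STAG2 antibody library from Stag2-KO cells.

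Keratins are the intermediate filament proteins of epithelia. A type I and a type II keratin pair to build a filament, so that cells make them in sets, and most type I genes lie in one cluster on mouse chromosome 11 and type II genes in another on chromosome 15. In the urothelium, Krt5 and Krt14 mark basal cells, Krt8, Krt18, Krt7 and Krt19 are made across simple and luminal epithelia, Krt13 marks intermediate layers, and Krt20 marks the umbrella cells at the lumen. Hair keratins fill the hair shaft, together with keratin associated proteins, and are not known as genes of the urothelium.

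A gene end was called occupied in a library when it had a summit no more than 500 bp from the start or the end of the gene. The lists differed in size, from 286084 to 539200 peaks per library, and much more in their strongest part, from 316 to 25859 peaks at q 0.01. The 2 STAG2-KO libraries still listed 1239 and 6777 peaks at q 0.01, against 25859 and 13346 in the 2 STAG2-WT libraries. No p130 library passed 896. The fold enrichment of a peak, which is the authors' value, is its pileup over the background used when that library's peaks were called. Whether that background came from a control library is not given in the sources used here. Folds of different libraries are set side by side below as a description. Each is scaled to the background of one list, so no test was made of a fold between genotypes. Among protein-coding genes, 33.4% to 53% had an occupied end in the deposited lists, which admit peaks of p up to 0.05, and 1.07% to 29.3% at q 0.01.

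Before the counts, the upstream sequences of 3 urothelial keratins are shown. They differ in make-up, and the summit of the strongest peak at any keratin gene end lies in the first of them. They are the 250 bases upstream of the annotated start, 5′ to 3′ on the strand of the gene, from RefSeq (GRCm38.p6). Krt8 is at chr15:102004343-102004592 on the minus strand, Krt7 at chr15:101412153-101412402 on the plus strand and Krt20 at chr11:99438154-99438403 on the minus strand. Capitals mark the GC box (GGGCGG on either strand) in Krt7 and the TATA box (TATAAA) in Krt20.
Krt8: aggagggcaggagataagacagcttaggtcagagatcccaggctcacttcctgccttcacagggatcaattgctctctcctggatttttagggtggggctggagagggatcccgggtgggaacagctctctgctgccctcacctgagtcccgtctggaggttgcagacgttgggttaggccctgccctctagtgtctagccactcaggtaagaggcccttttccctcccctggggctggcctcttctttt
Krt7: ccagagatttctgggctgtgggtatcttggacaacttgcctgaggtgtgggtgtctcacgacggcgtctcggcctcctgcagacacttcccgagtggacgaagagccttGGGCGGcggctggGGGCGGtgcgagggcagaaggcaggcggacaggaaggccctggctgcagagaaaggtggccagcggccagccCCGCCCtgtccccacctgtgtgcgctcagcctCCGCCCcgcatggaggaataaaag
Krt20: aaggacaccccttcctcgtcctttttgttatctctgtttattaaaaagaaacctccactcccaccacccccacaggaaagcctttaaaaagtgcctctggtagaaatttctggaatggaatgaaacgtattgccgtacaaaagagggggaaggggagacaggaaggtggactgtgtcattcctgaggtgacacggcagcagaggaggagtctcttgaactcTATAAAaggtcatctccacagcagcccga
Krt7 held 4 GC boxes, with first bases at -141, -128, -56 and -24 from the start, and Krt20 held a TATA box at -29. Promoters of 36 keratins, 7 of them urothelial, matched the RefSeq table. Krt15 and Krt19 are not in it. A match is only a run of letters and no evidence of a bound factor.

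The 5 motifs searched, on both strands of the same 250 bases, split the keratins in different ways. TATAAA was found in 16 of 29 other keratins and 1 of 7 urothelial ones (Krt20), against 12.4% of all 17492 promoters. The CHR element TTTGAA, a sequence that LIN54 is known to bind, was found in 10 of 29 other keratins and 0 of 7 urothelial ones, against 15.1% of all promoters. The GC box was found in 42.7% of all promoters, but in 1 of 7 urothelial keratins (Krt7) and 1 of 29 others. The AP-1 motif TGANTCA was found in 1 of 7 urothelial keratins (Krt13) and 0 of 29 others, against 6.18% of all promoters, and the GRHL motif AACNGGTT in no keratin, against 1.76%. No motif overlapped another in the 3 sequences shown.

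In the deposited lists, urothelial keratin ends were occupied about as often as those of genes at large, and the other keratins less often. Counted over all 15 libraries, 67 of 135 gene and library pairs (49.6%) were occupied for the urothelial keratins and 202 of 660 (30.6%) for the others, beside 44% for all protein-coding genes. Hair shaft keratins stood at 74 of 225 (32.9%) and inner root sheath keratins at 22.9%. The median number of occupied libraries was 7 for a urothelial keratin, 4.5 for another keratin and 6 for all genes. The share was higher for the urothelial keratins than for the others in 14 of 15 libraries, with p130-KO replicate 3 the exception, but higher than for all genes in 7 of 15. Against hair shaft keratins alone, the urothelial share was higher in 13 of 15, and lower in STAG2-WT replicate 1 and p130-KO replicate 1. The share for the other keratins was lower than for all genes in 13 of 15.

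The mean share was higher for urothelial keratins than for the others in all 6 groups, with a wide spread between libraries of a group and, in p130-KO, an order that turned with the libraries used. In STAG2-WT, 61.1% ± 23.6 (SD, n = 2) of urothelial keratins and 35.2% ± 1.61 of the others had an occupied end, beside 50.7% and 53% of all genes in the 2 libraries. In STAG2-KO the shares were 50% ± 7.86 (SD, n = 2) and 23.9% ± 1.61, beside 38.7% and 46.2%. In LIN54-WT they were 55.6% ± 19.2 (SD, n = 3) and 33.3% ± 6.94, beside 47.2%, 49.4% and 45.3%. In LIN54-KO both libraries had 4 of 9 urothelial keratins occupied (44.4%), the others stood at 26.1% ± 4.82 (SD, n = 2), and all genes at 47.5% and 49.6%, above the urothelial keratins. The WT and KO libraries of these antibodies overlap in the urothelial count, which ran from 4 to 7 of 9 in STAG2-WT, 4 to 5 in STAG2-KO, 3 to 6 in LIN54-WT and stayed at 4 in LIN54-KO. Hair shaft keratins alone had a mean share of 33.3% in STAG2-WT (20% and 46.7% in its libraries) and 30% in STAG2-KO. Their mean was 33.3% in LIN54-WT and LIN54-KO, 35.6% in p130-WT and 31.1% in p130-KO.

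The p130 libraries had the widest spread. In p130-WT 55.6% ± 29.4 (SD, n = 3) of urothelial keratins and 32.6% ± 11.2 of the others were occupied, beside 44.9%, 46.6% and 38% of all genes. In p130-KO the shares were 33.3% ± 22.2 (SD, n = 3) and 30.3% ± 9.46, beside 34.4%, 35.7% and 33.4%. The order in p130-KO turned to 22.2% and 25% without replicate 2 and to 33.3% and 34.1% without replicate 1. The highest count, 8 of 9, came from p130-WT replicate 1, which was the only library of batch 2 and had the most peaks. It also had 20 of 44 other keratins occupied, the most of any library. Without it, within batch 3, p130-WT had 38.9% of urothelial keratins and 26.1% of the others. All STAG2 and LIN54 libraries were in batch 1 and all p130 libraries in batches 2 and 3, so that p130 and batch cannot be told apart. All p130 peaks at keratin ends were weak, with no keratin end at q 0.01 in any of the 6 libraries. Of all genes, 1.2%, 3.23% and 1.57% reached q 0.01 in p130-WT and 2.12%, 1.07% and 1.11% in p130-KO. The upper panel of the plot of shares by library shows this spread.

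**Figure D1:**
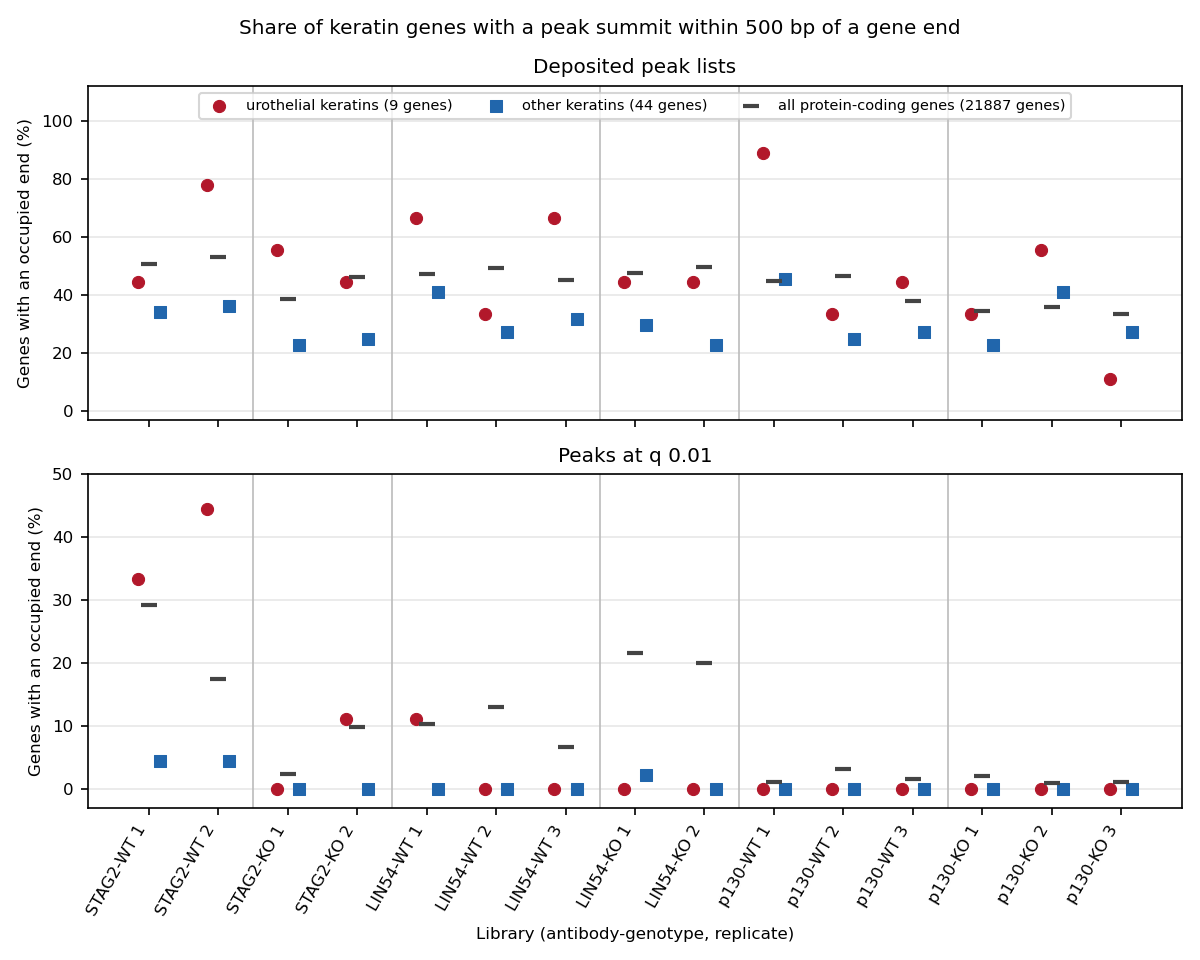
Percent of genes (vertical axis) with a peak summit within 500 bp of either gene end in each of the 15 libraries (horizontal axis), for 9 urothelial keratins (red circles), 44 other keratins (blue squares) and 21887 protein-coding genes (dark bars), in the deposited lists (upper panel) and at q 0.01 (lower panel). In the upper panel the red circles scatter on both sides of the dark bars and lie above the blue squares in 14 of 15 libraries; in the lower panel only STAG2-WT has red circles above 30%, and no p130 library has a keratin above 0.

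Strong peaks at keratin ends were few, and most of them were STAG2 peaks. At q 0.01, 9 of 135 urothelial pairs (6.67%) were occupied, from 5 genes (Krt7, Krt8, Krt15, Krt18 and Krt19), and 5 of 660 pairs of the others (0.758%), from 4 genes (Krt6a, Krt23, Krt79 and Krt80), beside 9.42% of the pairs of all genes. The urothelial share was above that of the other keratins in 4 of 15 libraries, equal to it in 10 and below it in 1. It was below that of all genes in 11 of 15. No hair shaft or inner root sheath keratin reached q 0.01 in any library. In STAG2-WT, 3 and 4 of 9 urothelial keratins were occupied at q 0.01 (38.9% ± 7.86, SD, n = 2), beside 29.3% and 17.4% of all genes, and 2 of 44 others in each library. In STAG2-KO the counts were 0 and 1 of 9, beside 2.36% and 9.93% of all genes. The share of all genes was also lower in STAG2-KO than in STAG2-WT. In such bulk libraries, binding in fewer cells and less binding per cell cannot be told apart. In LIN54-WT, 1, 0 and 0 of 9 were occupied, beside 10.4%, 13.1% and 6.77% of all genes, and in LIN54-KO none, beside 21.6% and 20%.

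LIN54 marked many gene ends at q 0.01 in the KO libraries, 4728 and 4378 genes within 500 bp. Among them were no urothelial keratin end and Krt80 alone of the others. With a window of 1000 bp, Krt8 was at q 0.01 in LIN54-KO replicate 1 (q 0.00504), but at a summit inside its neighbour Krt78. By fold, 6 urothelial pairs and 1 other pair exceeded 4. The highest fold was 11.9 among the urothelial keratins (Krt8) and 5.05 among the rest (Krt23). The typical occupied end was alike in all sets, with a median fold of 2.46 for urothelial keratins, 2.37 for the others and 2.66 for all genes. Occupied ends were more frequent among urothelial keratins, at 49.6% of pairs against 30.6% for the others. In fold, the 2 keratin sets differed at a few strong ends. The map of folds by gene and library shows these few dark cells in its top block.

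**Figure D2:**
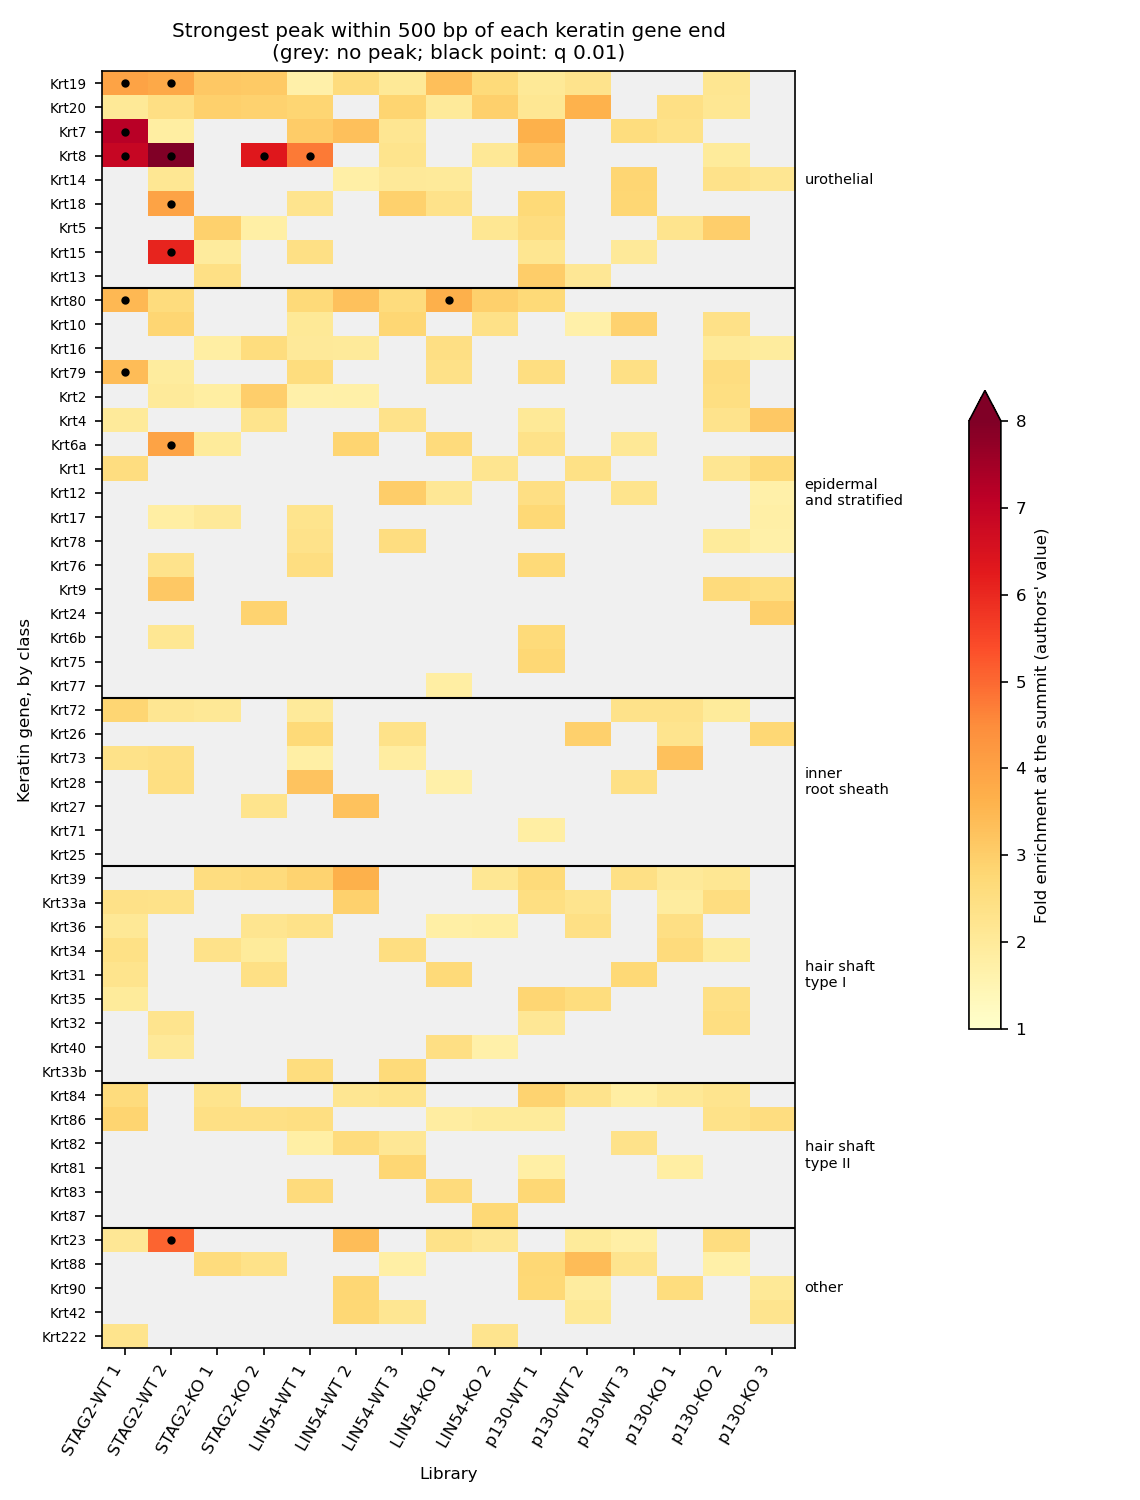
Fold enrichment at the summit (colour, the authors' value) of the strongest peak within 500 bp of each end of the 53 keratin genes (rows, by class and then by number of occupied libraries) in the 15 libraries (columns). Grey cells have no peak and black points mark q 0.01: 9 points lie in the urothelial block and 5 in the blocks of the other keratins, and every p130 column has none.

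Krt8, the type II keratin of simple epithelia, had the strongest keratin end. The gene lies at chr15:101996711-102004342 on the minus strand. In STAG2-WT its peak had a fold of 6.90 (q 3.97e-10) in replicate 1 and 11.9 (q 3.95e-23) in replicate 2, with summits 15 and 33 bp upstream of the 5′ end, inside the sequence shown above. In STAG2-KO replicate 2 the fold was 6.32 (q 1.12e-10), 28 bp upstream, and in STAG2-KO replicate 1 no peak was listed. The STAG2-WT peaks were 4992 and 3263 bp wide and the STAG2-KO peak 568 bp. Both WT libraries and 1 of 2 KO libraries thus had a strong peak at this end.

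The Krt8 5′ end also had LIN54 peaks, at a fold of 4.77 (q 0.000443, 13 bp upstream) in LIN54-WT replicate 1, 2.27 (q 0.857) in LIN54-WT replicate 3 and 2.07 (q 0.733) in LIN54-KO replicate 2. The other LIN54 libraries listed none within 500 bp. With a window of 1000 bp, LIN54-WT replicates 2 and 3 and LIN54-KO replicate 2 had summits 881, 932 and 832 bp upstream. Their folds were 3.79, 3.88 and 3.71 (q 0.0269, 0.0436 and 0.0115). LIN54-KO replicate 1 then had a summit 727 bp beyond the 3′ end and inside Krt78, at a fold of 3.78 (q 0.00504). Among p130 libraries, p130-WT replicate 1 had a fold of 3.22 (q 0.452) 475 bp inside the gene and p130-KO replicate 2 a fold of 1.98 at the 3′ end. That 3′ end lies 87 bp from the end of Krt78, so these 3′ peaks cannot be told apart from peaks of Krt78. Among the other keratins, the facing ends of Krt75 and Krt90 lie 393 bp apart and are shared in the same way.

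Krt18, the type I partner of Krt8, lies beside it at chr15:102028216-102032026 and not with the type I genes on chromosome 11. It was occupied in 6 libraries. The strongest peak was in STAG2-WT replicate 2, at a fold of 3.97 (q 0.00390) with its summit 454 bp inside the gene, and none was listed within 500 bp in the other 3 STAG2 libraries. The remaining 5 peaks within 500 bp, in LIN54 and p130 libraries, had folds of 2.24 to 2.93 and lay at its 3′ end. With a window of 1000 bp, STAG2-WT replicate 1 had a summit 960 bp beyond the 3′ end, at a fold of 3.69 (q 0.00421). The STAG2-KO libraries then had folds of 2.17 (q 0.771) and 2.96 (q 0.126).

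Krt7, a luminal type II keratin at chr15:101412403-101427806 on the plus strand, was listed in WT libraries alone for STAG2 and for LIN54. In STAG2-WT the fold was 7.16 (q 2.44e-11, 313 bp upstream) in replicate 1 but 1.83 (q 0.782) in replicate 2, and neither STAG2-KO library had a peak. In LIN54-WT the folds were 3.03, 3.31 and 2.17 (q 0.228, 0.0743 and 0.860), the last at the 3′ end, and neither LIN54-KO library had a peak. Only 1 of these 5 WT peaks was at q 0.01. Fisher's exact test over libraries gave p = 0.333 for STAG2 and p = 0.1 for LIN54, the smallest that these numbers of libraries allow, and an adjusted p of 1 over 21887 genes in both cases. With a window of 1000 bp or 250 bp, Krt7 was no longer in WT alone for either antibody. In p130 libraries its folds were 3.64 (p130-WT replicate 1), 2.57 (p130-WT replicate 3) and 2.35 (p130-KO replicate 1).

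Krt19, the smallest type I keratin, at chr11:100140810-100145926, was occupied in 12 of 15 libraries. Within 500 bp the STAG2-WT peaks of both replicates were at q 0.01, with folds of 3.95 (q 0.000805) and 3.84 (q 0.00376), at opposite ends of the gene. With a window of 1000 bp, replicate 1 had a stronger summit 560 bp beyond the higher-coordinate end, at a fold of 5.44 (q 8.44e-08). That is also the end of the replicate 2 peak. Both STAG2-KO libraries had weaker peaks, with folds of 3.12 (q 0.207) and 3.09 (q 0.0749). At q 0.01 it was the only keratin in both STAG2-WT libraries and neither STAG2-KO library, a pattern shown by 6.19% of all genes. All 5 LIN54 libraries listed Krt19, with folds of 1.69, 2.61 and 2.06 in WT and 3.34 (q 0.0298) and 2.66 in KO. With a window of 1000 bp the WT folds were 1.93, 2.61 and 3.17, on both sides of the lower KO fold.

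Krt15, a type I keratin of basal cells at chr11:100131759-100135949, had its only strong peak in STAG2-WT replicate 2, at a fold of 6.09 (q 1.20e-08), 27 bp beyond the higher-coordinate end. STAG2-WT replicate 1 had none within 500 bp. STAG2-KO replicate 1, LIN54-WT replicate 1, p130-WT replicate 1 and p130-WT replicate 3 had folds of 1.94 to 2.42. The strong value thus rests on 1 library.

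Krt5, the basal type II keratin at chr15:101707069-101712905 on the minus strand, shows how the window shapes a call. Within 500 bp it was listed in both STAG2-KO libraries, at folds of 2.92 (q 0.542) and 1.77 (q 0.869), and in neither STAG2-WT library. Both STAG2-WT libraries had summits at q 0.01 just outside, 932 and 889 bp upstream of the 5′ end, at folds of 5.60 (q 7.98e-07) and 7.39 (q 2.44e-10). STAG2-KO replicate 1 had a summit at nearly the same place, 961 bp upstream, at a fold of 3.49 (q 0.0875), and LIN54-KO replicate 2 had one 946 bp upstream at 3.51 (q 0.0297). With a window of 1000 bp Krt5 was listed in 14 of 15 libraries, and the call in STAG2-KO alone was gone. Its Fisher's exact p for STAG2 was 0.333 and its adjusted p was 1.

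The basal partner Krt14 and the intermediate keratin Krt13 had no strong end. Krt14 (chr11:100203162-100207510) was occupied in 7 libraries, at folds of 1.75 to 2.83. Krt13 (chr11:100117327-100121566) was occupied in 3 libraries, at folds of 2.11 to 3.01, the fewest of the urothelial keratins. Krt20 (chr11:99428385-99438153), the umbrella cell keratin, was occupied in 12 libraries, as many as Krt19, but its folds ran from 1.99 to 3.60 and none reached q 0.01. Krt8, with 8 occupied libraries, had 4 peaks at q 0.01, whereas Krt20 had many occupied libraries and no strong peak.

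Among the other keratins, the most often occupied were hair shaft genes, at weak peaks. Krt39, Krt84 and Krt86 were each occupied in 9 of 15 libraries, at folds of 2.03 to 3.64, 1.82 to 2.86 and 1.87 to 2.86. Krt23, an orphan type I keratin, and Krt80, a type II keratin of differentiating epithelia, followed with 8 each. Krt25, of the inner root sheath, was the only keratin with no occupied end in any library. The hair shaft genes thus showed peaks in many lists without a strong one in any.

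The 5 strong pairs of the other keratins were spread over STAG2 and LIN54. Krt23 had the highest, a fold of 5.05 (q 2.12e-05) in STAG2-WT replicate 2, 132 bp from its 5′ end. Krt6a, a keratin of activated stratified epithelium, had a fold of 3.97 (q 0.00390) in the same library, and Krt79 3.40 (q 0.00684) in STAG2-WT replicate 1. Krt80 reached q 0.01 in STAG2-WT replicate 1 (3.48, q 0.00232) and in LIN54-KO replicate 1 (3.67, q 0.00472). None of the 4 reached it in both libraries of a group. Krt6a and Krt6b are near copies, and how reads that fit both were placed is not given in the sources used here.

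Between genotypes, no keratin and no other gene passed the test for any antibody. Fisher's exact test over libraries, adjusted by Benjamini-Hochberg over 21887 genes, gave 0 genes at adjusted p under 0.05 and also 0 at an unadjusted p under 0.05, since 2 against 2 libraries cannot go below p = 0.333, and 3 against 2 or 3 against 3 not below 0.1. Genes listed in all libraries of 1 genotype and in no library of the second are given as a description. For STAG2, 6 of 53 keratins were in WT alone (Krt7, Krt23, Krt33a, Krt73, Krt79 and Krt80), beside 6.44% of all genes, and 4 in KO alone (Krt5, Krt16, Krt39 and Krt88), beside 2.03%. For LIN54, Krt7 and Krt82 were in WT alone, beside 1.38%, and Krt40 in KO alone, beside 2.04%. For p130 there was none in either direction, beside 2.42% and 0.854%. The urothelial share of these sets was 1 gene in each of 3, and none of those genes stayed with a window of 1000 bp or 250 bp.

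The strong peaks of the keratin clusters lay mostly away from gene ends. Both clusters were taken with 5 kb on either side, which gave chr11:99227761-100274951 and chr15:101343315-102037026. The STAG2 and LIN54 libraries listed 165 peaks at q 0.01 in them, of which 14 (8.48%) were at a keratin end, 9 of them at a urothelial one, and none at the end of any other protein-coding gene alone. Of all 89738 peaks at q 0.01 in the same libraries, 27.9% were at the end of a protein-coding gene. The share in the clusters was below that of the genome in all 9 libraries, a difference that was not tested. The p130 libraries listed none. Each base and each summit was then given to its nearest keratin gene. The stretches nearest to a urothelial keratin made up 12.4% of the bases and held 74 of the 165 peaks (44.8%). Stretches nearest to a hair shaft keratin, which include the block of keratin associated protein genes, made up 41.3% and held 13 peaks (7.88%), and those of epidermal and stratified keratins made up 30.2% and held 33.3%. Stretches of the 5 keratins in no class made up 6.73% and held 10.9%.

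Strong peaks around urothelial keratins were denser than over the genome in all 9 STAG2 and LIN54 libraries. Per 100 kb, STAG2-WT had 8.81 and 7.42 peaks there, STAG2-KO 1.39 and 3.25, LIN54-WT 1.39, 2.32 and 0.928, and LIN54-KO 4.64 and 4.17. The WT libraries were above the KO libraries for STAG2 and below them for LIN54, with no overlap in either case. The number of q 0.01 peaks over the genome moved the same way, at 0.972 and 0.502 per 100 kb in STAG2-WT, 0.0466 and 0.255 in STAG2-KO, 0.0815 to 0.249 in LIN54-WT and 0.595 and 0.491 in LIN54-KO. Relative to the genome, the density was 9.07 and 14.8 times in STAG2-WT, 29.9 and 12.7 times in STAG2-KO, 7.29 to 11.4 times in LIN54-WT and 7.80 and 8.51 times in LIN54-KO. On that scale neither order of the genotypes was kept: STAG2-KO replicate 1, whose value rests on 3 peaks, was the highest, and the LIN54-KO values lay within the LIN54-WT range. Other stretches were dense too. Those of the 5 keratins in no class had 1.71 peaks per 100 kb in LIN54-WT replicate 1, above the 1.39 of the urothelial stretches, and those of epidermal and stratified keratins reached 12.2 times the genome in STAG2-KO replicate 1. The genome includes gene-poor stretches, and no test was made of these densities.

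**Figure D3:**
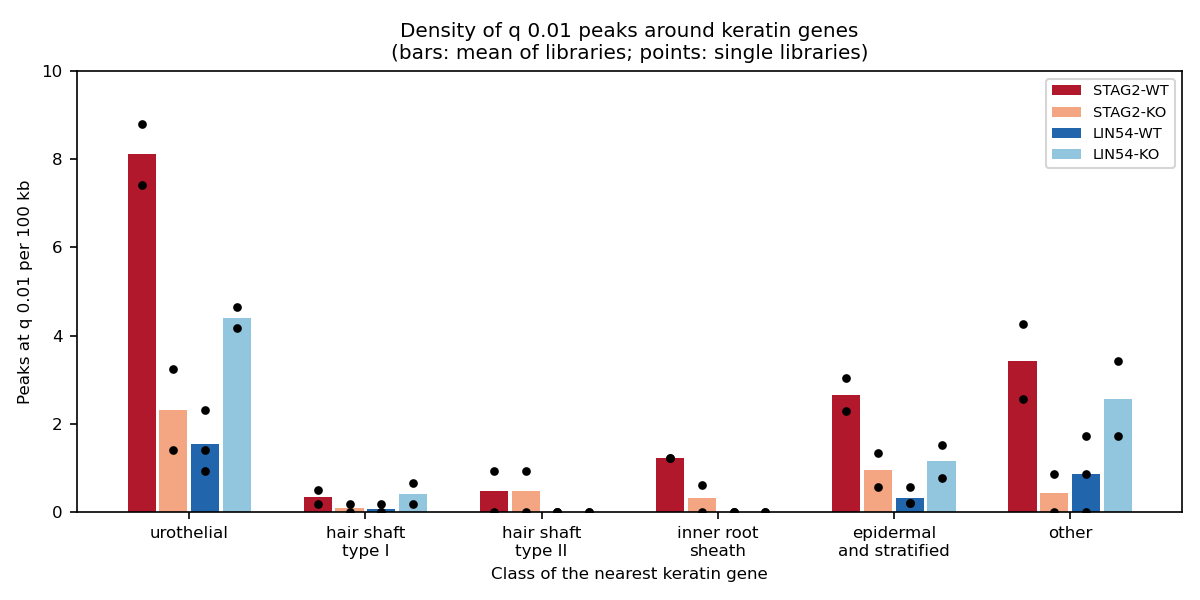
Peaks at q 0.01 per 100 kb (vertical axis) in stretches of the keratin clusters nearest to keratins of each class (horizontal axis), for the STAG2 and LIN54 groups, with bars for the mean of the libraries and points for single libraries. The urothelial stretches have the highest mean in all 4 groups, at 8.12 in STAG2-WT, 2.32 in STAG2-KO, 1.55 in LIN54-WT and 4.41 in LIN54-KO, and hair shaft stretches stay below 1 in every library.

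The strong summits recurred at a few places, inside genes as well as between them. Of the q 0.01 summits linked within 500 bp, 12 sites were shared by at least 4 libraries, a list drawn up after the values were seen. The strongest lay inside the body of Krt78, with summits at chr15:101984239-101984334, 12425 bp from the nearest end of Krt8. Its fold was 13.6 and 24.7 in STAG2-WT, 5.13 and 9.58 in STAG2-KO, 6.20, 8.56 and 3.51 in LIN54-WT, and 8.97 and 9.54 in LIN54-KO. All 9 STAG2 and LIN54 libraries had a peak there, 8 of them at q 0.01, so the site is shared by both antibodies and both genotypes. Krt78 itself, a keratin of stratified epithelium, had no end at q 0.01 within the 500 bp window.

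A pair of sites lay between Krt8 and Krt18, centred on positions 102016390 and 102018035 of chromosome 15. Each was at q 0.01 in 8 libraries. The summits of the first spread over chr15:102016152-102017029, and LIN54-WT replicate 1, counted among the 8, had none listed at its centre. At the second the fold was 6.07 and 5.50 in STAG2-WT and 5.05 in STAG2-KO replicate 1, with none in STAG2-KO replicate 2. In LIN54-WT it was 7.67, 5.36 and 4.90, and in LIN54-KO 10.5 and 7.93. It lies 10181 bp from the 5′ end of Krt18 and 13693 bp from the 5′ end of Krt8. LIN54 folds there exceeded those at any keratin end, where the highest LIN54 fold was the 4.77 of Krt8.

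On chromosome 11 a site between Krt19 and Krt9 (chr11:100168877-100169414) was strong with STAG2 and weak with LIN54. Its fold was 13.1 and 19.9 in STAG2-WT and 5.61 and 14.2 in STAG2-KO. In LIN54-WT it was 2.20 in replicate 1, with none in the other 2 libraries, and 3.05 in LIN54-KO replicate 2. LIN54-KO replicate 1 had a summit at q 0.01 at the edge of the site, at a fold of 4.65. It lies 23476 bp from Krt19 and 17379 bp from Krt9. Closer to Krt19, sites 12087 and 13735 bp from it were at q 0.01 in 5 and 6 libraries, and both antibodies had strong peaks there. At the first the fold was 7.09 and 4.30 in STAG2-WT, 4.07 and 1.95 in STAG2-KO, 3.57, 5.71 and 2.80 in LIN54-WT, and 6.99 and 6.17 in LIN54-KO. At the second it was 4.07 and 4.32 in STAG2-WT, 3.49 and 6.23 in STAG2-KO, 2.99, 5.95 and 2.18 in LIN54-WT, and 6.03 and 5.59 in LIN54-KO. At the first site STAG2-WT was above STAG2-KO and LIN54-WT below LIN54-KO, and at the second the genotypes overlap for both antibodies. A site 16248 bp from Krt20 was listed in all 9 STAG2 and LIN54 libraries, at folds of 3.18 to 4.98, although the Krt20 ends had no strong peak. The exon structure of these stretches was not used here.

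**Figure D4:**
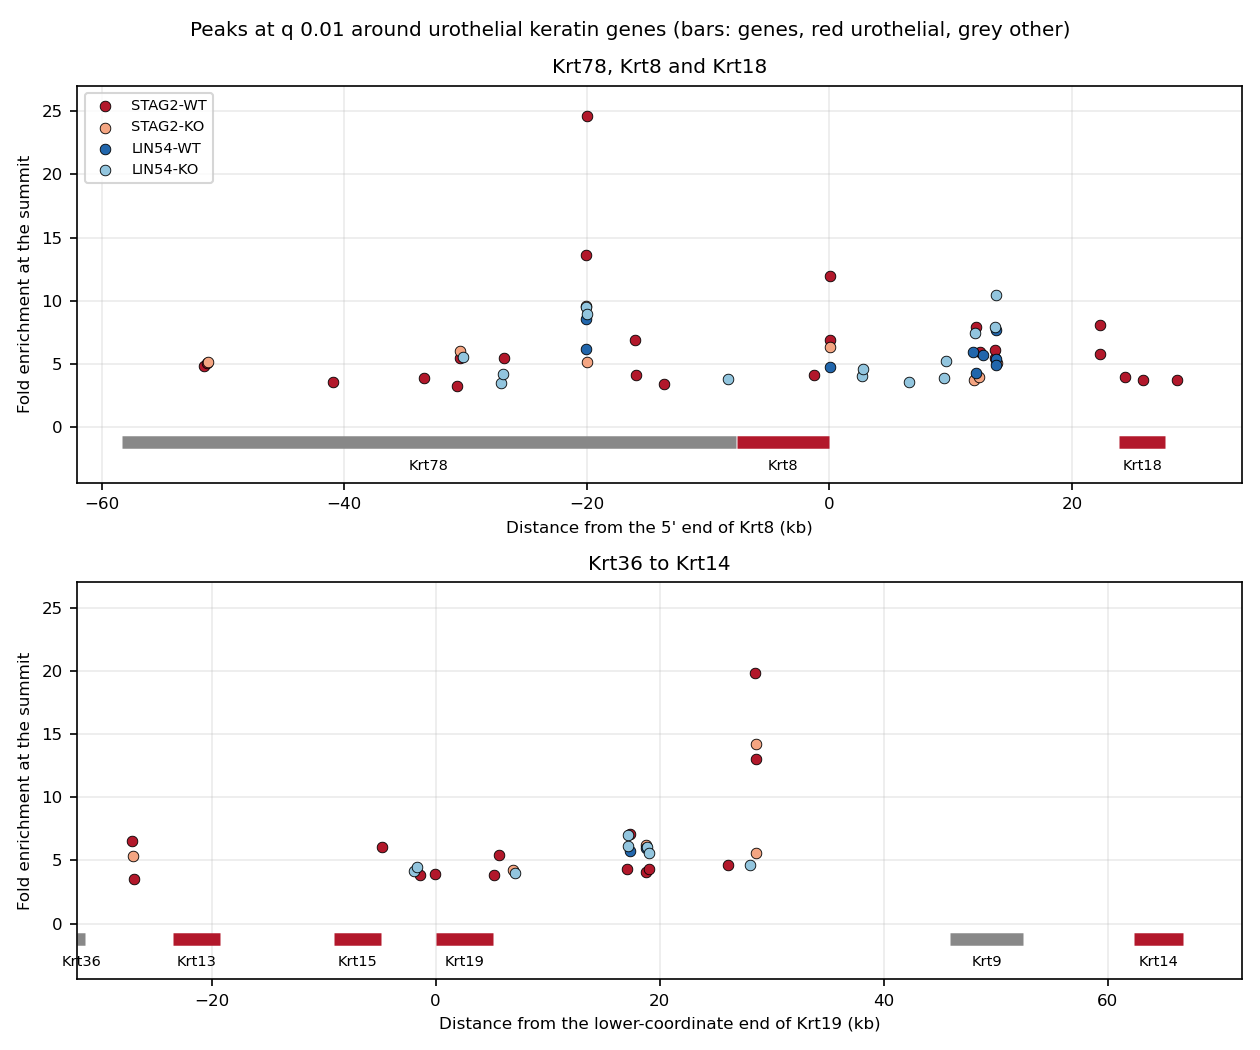
Fold enrichment at the summit (vertical axis, the authors' value) of peaks at q 0.01 against distance in kb from the 5′ end of Krt8 (upper panel) and from the lower-coordinate end of Krt19 (lower panel), coloured by group, with bars for genes (red urothelial, grey other). The highest points of the upper panel, at 13.6 and 24.7 in STAG2-WT, lie inside Krt78, the Krt8 5′ end reaches 11.9, and LIN54 points gather between Krt8 and Krt18; in the lower panel the STAG2 points between Krt19 and Krt9 reach 19.9.

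Genes whose products work with keratins were read from 3 lists. Of 13 genes that anchor keratin filaments at desmosomes and hemidesmosomes, 8 and 9 were occupied in the STAG2-WT libraries, beside 50.7% and 53% of all genes, and 2 and 3 at q 0.01 (15.4% and 23.1%), beside 29.3% and 17.4%. Jup, which encodes the desmosomal and adherens junction protein plakoglobin and lies on chromosome 11 close to the keratin cluster, was at q 0.01 in all 4 STAG2 libraries (folds 6.02 and 7.06 in WT, 4.38 and 5.55 in KO) and in 4 of 5 LIN54 libraries (7.23 and 5.95 in WT, 12.7 and 10.8 in KO). Its summits lay 26 to 178 bp upstream of the 5′ end in these 9 libraries. Dsp, which encodes desmoplakin, was occupied in 9 libraries and never at q 0.01. Over the 13 anchor genes, the mean share at q 0.01 was 7.69% in STAG2-KO, beside 6.15% of all genes, from Jup alone. It was 5.13% in LIN54-WT, also from Jup alone, and 11.5% in LIN54-KO, beside 10.1% and 20.8%. It was 0% in both p130 groups, beside 2.00% and 1.43%. Outside STAG2-WT, the mean in the deposited lists ran from 28.2% in p130-KO to 57.7% in STAG2-KO, beside 34.5% and 42.5%.

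Of 15 other intermediate filament genes, a mean of 33.3% was at q 0.01 in STAG2-WT, beside 23.4% of all genes. The means were 6.67% beside 6.15% in STAG2-KO, 17.8% beside 10.1% in LIN54-WT and 23.3% beside 20.8% in LIN54-KO. They were 4.44% beside 2.00% in p130-WT and 4.44% beside 1.43% in p130-KO. Among these genes, Bfsp1, which encodes a lens filament protein, was at q 0.01 in 9 libraries, and the lamin genes Lmna and Lmnb1 in 8 each. Vim, the mesenchymal filament gene, was at q 0.01 in 2. No end of the 56 keratin associated protein genes, which serve the hair shaft, was at q 0.01 in any library, like the hair shaft keratins. In the deposited lists 6 to 18 of the 56 were occupied per library (10.7% to 32.1%), and the mean was highest in p130-WT, at 13.7, and p130-KO, at 13.3, beside 33.4% to 53% of all genes.

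Marker lists for the tissue were read in the same way at q 0.01. In STAG2-WT, 4 and 3 of 5 uroplakin genes, which encode the plaque proteins of the umbrella cells, were occupied, beside 1 of 6 fibroblast markers in each library, 1 and 0 of 5 smooth muscle markers, 1 and 0 of 6 immune markers and 0 of 5 endothelial markers, with all genes at 29.3% and 17.4%. In LIN54-KO 3 and 2 of 5 uroplakin genes were occupied, beside 3 and 0 of 6 fibroblast markers, 1 and 0 of 5 smooth muscle markers, 1 of 6 immune markers in each library and 0 of 5 endothelial markers, with all genes at 21.6% and 20%. The urothelial list also held the 9 urothelial keratins, at a mean of 38.9% in STAG2-WT and 0% in LIN54-KO. The mean for uroplakin genes was 30% in STAG2-KO, beside 6.15% of all genes, and 13.3% in LIN54-WT, beside 10.1%. It was 0% in p130-WT and p130-KO, beside 2.00% and 1.43%. No fibroblast, smooth muscle, immune or endothelial marker was occupied in these groups. Occupied ends of markers do not measure expression, and the cell make-up of the libraries was not tested.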

How the data were processed

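The deposited peak lists, 1 per library, were made by the authors with bcl2fastq, Bowtie2 and MACS2 on mm10, per the submitters' processing notes. Versions, settings and any use of a control library in peak calling are not given in the sources used here. The pMNase controls (2 samples) were not used here. Each deposited peak has a fold (a ratio of pileup to the background used in its peak call) and −log10 values of p and q. The lists give no read counts, so an absent peak means only that none was called at that depth.

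Summits on chromosomes 1 to 19, X and Y were matched to gene ends in Python 3.11.15 with NumPy 2.4.6 and pandas 2.3.3. The gene table gives no strand, which came from the promoter table where a keratin is in it. An end was occupied with a summit within 500 bp of either gene end. The strict setting was q 0.01 or below. Occupancy was compared between genotypes, for each antibody, by two-sided Fisher's exact tests over libraries (SciPy 1.17.1) with Benjamini-Hochberg adjustment over all genes. The join was tested on simulated data and recovered 200 of 200 planted ends.

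The members, keratin classes and other lists were chosen with earlier results of these data known, so counts over members carry no p-value. Named genes were the 9 urothelial keratins and, of the others, the 5 occupied in most libraries, those at q 0.01 in any library, those in all libraries of 1 genotype alone, and those in no library. The alternatives were q 0.01, the 20000 best peaks, windows of 250 and 1000 bp, each replicate left out, batch 3 alone, the replicate block and the 5′ end alone. Krt74, of the inner root sheath, and Krt85, of the hair shaft, are not among the protein-coding genes of the table under these symbols and were left out.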

Additional observations from a re-analysis of the deposited data

How the results depend on the processing

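The shares of keratins with an occupied end depended on threshold and window, as fewer peaks or fewer bases were counted. Values are given as urothelial, then other keratins, in percent. At q 0.01 the other keratins stood at 4.55 in STAG2-WT, STAG2-KO at 5.56 and 0, LIN54-WT at 3.70 and 0, LIN54-KO at 0 and 1.14, p130-WT at 0 and 0 and p130-KO at 0 and 0. With the 20000 best peaks the other keratins stood at 3.41 in STAG2-WT, STAG2-KO at 16.7 and 0, LIN54-WT at 7.41 and 1.52, LIN54-KO at 0 and 1.14, p130-WT at 11.1 and 0.758 and p130-KO at 0 and 1.52. With 250 bp the other keratins stood at 18.2 in STAG2-WT, 10.6 in LIN54-WT and 16.7 in p130-KO, STAG2-KO at 27.8 and 7.95, LIN54-KO at 33.3 and 13.6 and p130-WT at 25.9 and 16.7. With 1000 bp STAG2-WT stood at 100 and 56.8, STAG2-KO at 88.9 and 46.6, LIN54-WT at 88.9 and 51.5, LIN54-KO at 61.1 and 38.6, and the others at 51.5 in p130-WT and 49.2 in p130-KO. The 5′ end alone, an alternative added after seeing the data, was counted over the 7 urothelial and 29 other keratins with a strand. With it STAG2-KO stood at 35.7 and 10.3, LIN54-KO at 21.4 and 13.8, and urothelial keratins at 4.76 in p130-KO. The others stood at 13.8 in STAG2-WT, 17.2 in LIN54-WT, 13.8 in p130-WT and 13.8 in p130-KO. All genes stood at 4.38 to 26.1 with the 20000 best peaks, 19.8 to 38.4 with 250 bp and 50.8 to 68.5 with 1000 bp. The 17492 genes with a strand stood at 22.4 to 45.4 with the 5′ end alone. The urothelial share was below that of the others in p130-KO with the 5′ end alone and with the 20000 best peaks, and in LIN54-KO with the 20000 best peaks and at q 0.01. The remaining 42 shares stayed within 1 SD. Most of them came from leaving out a library, which cannot move a mean by more than 1 SD with so few libraries. Those bear on no stability. Others stayed within a wide SD. The urothelial share fell from 61.1 to 38.9 at q 0.01 in STAG2-WT (SD 23.6). In p130-WT it rose from 55.6 to 77.8 with 1000 bp (SD 29.4). All 31 counts of genes that differ between genotypes were 0, which the smallest p allowed made certain, so they bear on no stability.

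Leaving out each replicate moved the urothelial share between 44.4 and 77.8 in STAG2-WT, 44.4 and 55.6 in STAG2-KO, 50 and 66.7 in LIN54-WT, 38.9 and 66.7 in p130-WT, and 22.2 and 44.4 in p130-KO. In p130-KO the low value is without replicate 2. Replicate numbers were not taken to pair the samples: deviations of same-numbered libraries correlated at no more than 0.0160 for any antibody. With the replicate block, 0 genes passed for any antibody, and the smallest p allowed was 0.5 for STAG2 and LIN54 and 0.25 for p130. Presence in a list depends on the depth of the library, which the lists do not give, and Fisher's exact test on presence in 2 or 3 libraries a group cannot reach p 0.05.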
